A study of Mus musculus with 96 samples.

Results

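The interferon-induced GTPase genes described here are Iigp1, Igtp, Irgm1, Irgm2, Gbp2 and Gbp3, measured in mouse primary bone marrow dendritic cells. They were taken as the probe sets that the platform annotation assigns to these 6 symbols alone, which gave 8 of the 18858 probe sets, with 2 each for Iigp1 and Gbp2. All 6 were among the 7741 named genes tested. The first 4 encode immunity-related GTPases (IRGs) and the last 2 encode guanylate-binding proteins (GBPs). Proteins of both families are made in quantity after interferon and gather on the membranes of vacuoles that hold intracellular parasites or bacteria, where they help to break the vacuole open. Iigp1 is an effector of this kind, whereas Irgm1, Irgm2 and Igtp belong to the regulatory group that holds effectors inactive on the cell's own membranes. In these genes type I interferon acts mainly through interferon-stimulated response elements (ISRE) in the promoter, and interferon-gamma through gamma-activated sites (GAS).

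The cells were exposed to 1 of 5 Toll-like receptor (TLR) ligands, labelled Lps, Pic, Pam, Cpg and Grd. The labels do not spell these names out, and they are read here, from what is known of the study, as lipopolysaccharide (sensed by TLR4), the RNA analogue poly(I:C) (TLR3), a lipopeptide (TLR2), CpG DNA (TLR9) and gardiquimod (TLR7). Each ligand was followed over 9 times, with 2 arrays a time, save for single Cpg arrays at 16 and at 24 h. The early arrays are those of 0.5, 1 and 2 h, the middle ones those of 4, 6 and 8 h, and the late ones those of 12, 16 and 24 h. Each of these windows holds 6 arrays per ligand, with 4 for late Cpg. The 8 arrays of unstimulated cells (Control) have 1 array at 0 h and 1 at each later time except 0.5 and 16 h. No strain, sex, age or dose is used here.

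Values are intensities on a linear scale with a floor of 20, below which no value is given. Their median per array ran from 48.75 to 59.5, and 33.1% to 34.6% of probe sets per array lay at the floor. Differences are given on the log2(intensity + 1) scale, ligand minus Control, with the standard error of a limma fit over all 96 arrays and an adjusted p over all 10543 items tested. A gene was called higher or lower, and is said to have risen or fallen, where the adjusted p was under 0.05 and the difference was at least 1 in size. The labels do not say that arrays came from separate cultures, so these p-values measure only the spread between arrays, which may be technical. On the plate, 1 column held 1 time of the ligands Lps, Pic, Pam and Grd, and the Cpg and Control arrays shared 3 other columns. Plate position therefore cannot be told apart from time for those 4 ligands, nor from their comparison with Control or with Cpg. Among those 4 each ligand also had plate rows of its own, so row cannot be told apart from ligand. Arrays of bulk RNA also cannot tell apart a change in the share of cells that carry a transcript from a change in RNA per cell. Of the dendritic cell markers, Cd74, H2-Aa, H2-Ab1, Itgax and Itgam were bright in Control. Ciita had a Control mean of 157.3, and Zbtb46 and Flt3 were dim at 40.4 and 28.8. Of the macrophage markers Cd68, Csf1r, Mrc1, Adgre1 and Mertk were well above the floor in Control and Marco was near it, at 25.4. Of the granulocyte markers Ngp, Ltf and Camp were above it, at 1032.1, 260.1 and 110.2. Elane and Mpo were near it, at 31.3 and 25.8. The 8 dendritic cell markers summed to between 16194 and 26379 on the ligand arrays, against 23096 to 25276 on the Control arrays. The 6 macrophage markers summed to 5660 to 11877 with Lps, 6004 to 7874 with Pic, 6855 to 17675 with Pam, 6587 to 14429 with Cpg and 6980 to 17182 with Grd, against 8131 to 10995 in Control. The sum of the 3 plasmacytoid dendritic cell markers on the array, of 5 listed, reached 656.0 with Lps, 425.9 with Pic, 216.7 with Pam, 442.4 with Cpg and 233.4 with Grd, against 90.3 to 129.7 in Control. Of these 3, Tcf4 reached 592.7 and Ccr9 57.2 over all arrays, and Ly6d lay at 20 on all 96. The sum of 5 granulocyte markers, of 6 listed, ran from 279.5 to 2607 on the ligand arrays, against 1130 to 1708 in Control. The part of cell makeup in the results was not tested. The T cell genes Cd3g and Cd8a, the B cell genes Cd79a, Ms4a1 and Pax5 and the natural killer cell genes Ncr1 and Gzma lay at 20 on all 96 arrays. The other genes of these lists on the array left the floor on some arrays. Cd3e reached 26.9, Cd79b 28.4 and Prf1 24.0.

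The promoter stretches of the members are shown because the IRG and GBP members answered the ligands differently in the results below. They come from RefSeq on GRCm38.p6, in which 5 of the 6 members were matched, each with the 250 bases before to 50 bases after the gene start. The 130 bases printed run from 100 before to 30 after the start on the gene's own strand. Capitals mark matches to an ISRE core, GAAANNGAAA or its reverse complement TTTCNNTTTC, or to a GAS, TTCNNNGAA. Both strands were searched.
Igtp, chr11:58199456-58199585, plus strand: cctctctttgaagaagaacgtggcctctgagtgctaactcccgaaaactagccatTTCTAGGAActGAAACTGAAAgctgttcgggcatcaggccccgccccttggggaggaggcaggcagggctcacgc
Irgm2, chr11:58214877-58215006, plus strand: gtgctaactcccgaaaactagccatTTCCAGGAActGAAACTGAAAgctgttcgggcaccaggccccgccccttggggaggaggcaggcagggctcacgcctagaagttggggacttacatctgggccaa
Irgm1, chr11:48871391-48871520, minus strand: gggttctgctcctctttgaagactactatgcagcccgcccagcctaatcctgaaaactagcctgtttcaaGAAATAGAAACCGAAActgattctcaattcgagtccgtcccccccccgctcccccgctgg
Gbp2, chr3:142620563-142620692, plus strand: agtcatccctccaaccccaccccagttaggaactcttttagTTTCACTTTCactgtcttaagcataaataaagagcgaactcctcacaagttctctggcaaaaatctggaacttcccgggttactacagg
Gbp3, first promoter, chr3:142559944-142560073, plus strand: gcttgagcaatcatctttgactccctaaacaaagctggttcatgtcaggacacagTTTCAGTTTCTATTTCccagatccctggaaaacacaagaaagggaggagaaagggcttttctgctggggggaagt

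An ISRE core lay in the 300-base promoter of each of the 5 matched members, and 3.99% of the 27025 genes in the table hold one. In Irgm1 and in the first promoter of Gbp3, 2 overlapping matches formed a single run, and the second Gbp3 promoter in the table had 0 matches. A GAS match lay in Igtp and Irgm2, just upstream of the ISRE core, and 9.55% of genes hold one. The Igtp and Irgm2 promoters were nearly the same sequence, with 244 identical of 265 aligned bases (92.1%), while the other pairs had between 49.5% and 60.3% identity. A match describes letters in this window and is not a measured site of binding.

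In unstimulated cells all 6 genes were above the floor on all 8 arrays. The lowest, median and highest Control intensities were 78.3, 99.45 and 300.2 for Iigp1, 217.9, 249.3 and 370.3 for Igtp, 596.8, 650.25 and 964.5 for Irgm1, and 122.1, 157.75 and 265.3 for Irgm2. They were 1136.6, 2620.2 and 3056.7 for Gbp2 and 509.1, 928.05 and 1058.7 for Gbp3. The highest value of each IRG gene was that of the 6 h array. The lowest value of each GBP gene was that of the 24 h array, as it was for Igtp and Irgm1. The 6 h array stood at 3.06 times the mean of the other 7 for Iigp1, 1.69 times for Irgm2, 1.51 times for Igtp and 1.46 times for Irgm1. The 24 h array had 0.423 of the mean of its other 7 for Gbp2, 0.532 for Gbp3, 0.814 for Igtp and 0.839 for Irgm1. Across all 9710 items that varied in Control, the 6 h array was the highest for 11.6% and the 24 h array the lowest for 22.8%. Some other interferon-induced genes stood apart on these arrays too. The 6 h array had 2.64 times the mean of the other 7 for Ifit2, 2.16 times for Tgtp1 and 2.02 times for Cmpk2. The 24 h array had 0.436 of the mean of its other 7 for Irf7. Others did not: Irf7 and Cxcl10 at 6 h, and Ifit2 at 24 h, lay inside the range of the other arrays. Of 17 interferon ligands, receptors and signalling genes that varied in Control, 5 were highest at 6 h and 6 lowest at 24 h. Of 6 further IRG and GBP genes or relatives measured, all 6 were lowest on the 24 h array. For a linear trend over log2(hours + 1) in Control 0 of 6 members had an adjusted p under 0.05 in limma, and 0 of 6 an unadjusted p under 0.05, the lowest being 0.0589 for Gbp3. As 12.3% of all items passed, a count of 0 of 6 is near the background. With hours on a linear scale 2 members passed, Gbp2 and Gbp3, where 16.0% of items did. Results by window below that hang on these 2 arrays are also given without 1 or both of them. Calls at single times are given against all 8 Control arrays only, and some may hang on these 2.

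**Figure D1:**
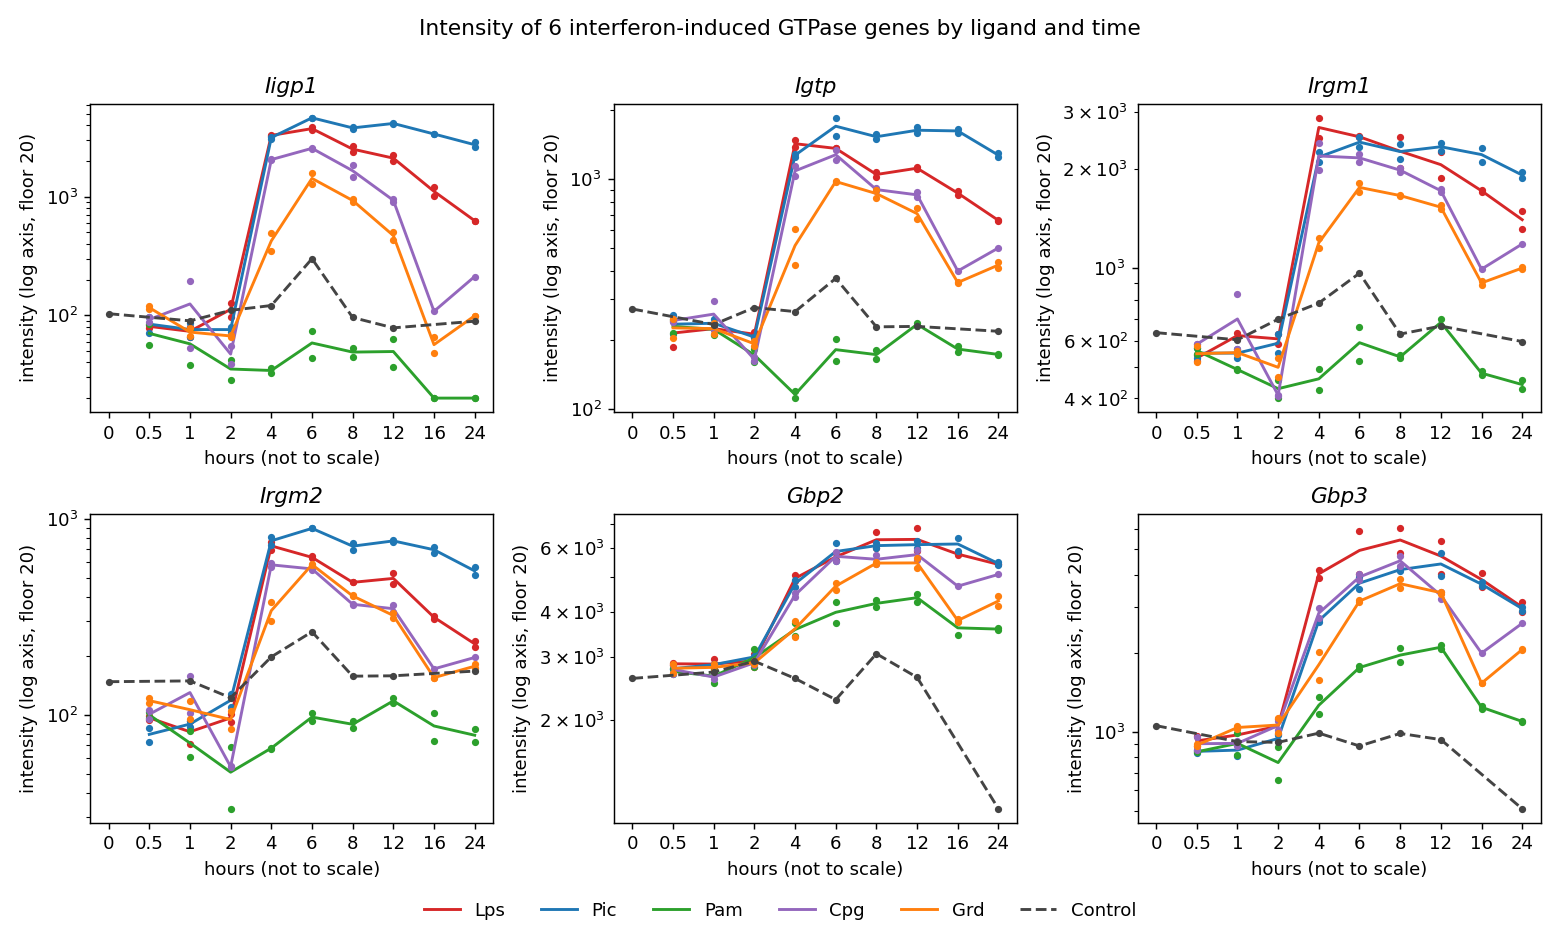
Intensity of each gene on a log axis against time, with the hours evenly spaced. Points are arrays, solid lines the means of each ligand and the dashed line the 8 Control arrays. The IRG genes climb between 2 and 4 h with Lps, Pic, Cpg and Grd and lie under or close to Control with Pam, while Gbp2 and Gbp3 lie above Control with all 5 ligands from 4 h.

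In the first 2 h no member was called higher with any ligand, and with Pam Iigp1 and Irgm2 had fallen. Iigp1 had lowest, median and highest intensities of 28.5, 48.95 and 84.7 with Pam, against 78.3, 99.45 and 300.2 in Control, a fall of 1.13 ± 0.19 on the log2 scale (limma, adjusted p = 2.2e-06). The second Iigp1 probe set stood at -0.39 (adjusted p = 0.057), not called. Of the 6 Pam arrays on the first, 5 lay below every Control array and 1 inside their range. Without the Control 6 h and 24 h arrays the difference was -0.95, and without the 6 h array alone -0.93, both short of a call. Leaving out 1 Pam array of 1 h gave -0.97, and leaving out the Pam arrays of 2 h gave -0.86. Irgm2 had 33.1, 75.45 and 103.7 with Pam, against 122.1, 157.75 and 265.3 in Control, and fell by 1.24 ± 0.11 (limma, adjusted p = 6.6e-14), with all 6 Pam arrays below all 8 Control arrays, as for 4.14% of items. Irgm2 was also below Control with the other ligands, at -0.86 with Lps, -0.81 with Pic, -0.65 with Grd and -0.90 with Cpg, with adjusted p of 5e-06 or less but over the whole window under the size of a call. Without the 2 h arrays of Pam the call on Irgm2 was also lost, at -0.97. As background, 2.39% of items were called in either direction in the first 2 h with Pam, 2.12% with Lps, 0.863% with Pic, 1.12% with Grd and 2.14% with Cpg. Among single times, Iigp1 and Irgm2 were called lower at 2 h with Pam, where 3.68% of items were, at 1 h with Pam, where 0.967% were, and at 2 h with Cpg, where 3.21% were. Irgm2 was also called lower at 1 h with Lps, by 1.03, and at 0.5 h with Pic, by 1.06, where 0.493% and 1.53% of items were. The Cpg arrays of 1 h differed from each other for the IRG genes: Iigp1 read 196.4 on one and 52.8 on the other, 1.88 apart on the log2 scale. Irgm2 fell by 1.01 with Cpg in the first 2 h once the brighter of these arrays was left out.

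From 4 to 8 h the IRG genes rose with Lps, Pic, Cpg and Grd, and Iigp1, the effector, had the largest differences of the 6 genes with each of these ligands. Iigp1 had lowest, median and highest intensities of 2383.4, 3294.3 and 3861.1 with Lps, 3100.8, 3811.25 and 4650.1 with Pic, 349.6, 930.15 and 1573.2 with Grd and 1456.1, 2059.2 and 2574.2 with Cpg, against 78.3, 99.45 and 300.2 in Control. No array of these ligands overlapped the Control arrays, and the share of all items with every array above every Control array in this window was 15.0% with Lps, 11.4% with Pic, 11.9% with Grd and 13.0% with Cpg. For Iigp1, within Grd the 4 h arrays were the low ones. The rises were 4.80 with Lps, 5.08 with Pic, 2.86 with Grd and 4.19 with Cpg, each ± 0.19, which are 27.9-fold, 33.8-fold, 7.27-fold and 18.2-fold on this scale. The highest adjusted p of the 4 in limma was 5.2e-19. In order of level, Pic and Lps did not differ beyond their spread, Lps stood above Cpg by 0.61 (95% interval 0.20 to 1.03), short of a call, and Cpg stood above Grd by 1.32, a called difference that was 0.84 and not called without the 4 h arrays.

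The regulatory IRG genes rose with the same ligands by smaller amounts. Igtp had lowest, median and highest intensities of 1018.5, 1362.75 and 1475.7 with Lps and 1254.6, 1521.5 and 1854.5 with Pic, against 217.9, 249.3 and 370.3 in Control, rises of 2.29 and 2.53 ± 0.08. With Cpg and Grd it rose by 2.06 and 1.54. Irgm1, which in mice is needed for resistance to intracellular bacteria, had 2025.4, 2510.95 and 2875.3 with Lps and 1152.2, 1663.7 and 1821.3 with Grd, against 596.8, 650.25 and 964.5 in Control. It rose by 1.85 with Lps, 1.73 with Pic, 1.14 with Grd and 1.62 with Cpg (± 0.07). Irgm2 had 697.9, 782.25 and 895.3 with Pic and 301.9, 404.4 and 586.5 with Grd, against 122.1, 157.75 and 265.3 in Control. Its rises were 1.85 with Lps, 2.25 with Pic, 1.37 with Grd and 1.56 with Cpg (± 0.11). For all 3 genes every array of these 4 ligands in this window lay above every Control array, and the highest adjusted p was 3.7e-16. With Control arrays of the same times in place of all 8, Irgm1 stood at 0.96 with Grd, just short of a call.

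The GBP genes rose in the same window, with larger differences for Gbp3 than for Gbp2. Gbp3 had lowest, median and highest intensities of 3902.2, 4504.35 and 6018.7 with Lps, 2632.2, 3714.4 and 4216.0 with Pic, 1589.5, 3171.05 and 3845.0 with Grd and 2736.0, 3922.25 and 4705.8 with Cpg, against 509.1, 928.05 and 1058.7 in Control. Its rises were 2.42 with Lps, 1.97 with Pic, 1.64 with Grd and 2.07 with Cpg (± 0.09), and every array was above every Control array. Gbp2, which in mice coats the vacuole of Toxoplasma, had 4852.7, 5672.05 and 6638.1 with Lps and 3408.5, 4706.85 and 5498.1 with Grd, against 1136.6, 2620.2 and 3056.7 in Control. It rose by 1.22 with Lps, 1.20 with Pic and 1.11 with Cpg, and stood 0.91 ± 0.10 above Control with Grd, under the size of a call although all 6 arrays lay above all Control arrays. The call with Cpg rested on the dim Control array of 24 h, without which the difference was 0.96, and it was 0.92 without the 6 h and 24 h arrays. In all, 6 of 6 members rose with Lps, Pic and Cpg in this window and 5 of 6 with Grd. The share of all items called higher was 7.05% with Lps, 4.93% with Pic, 4.53% with Grd and 5.40% with Cpg.

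**Figure D2:**
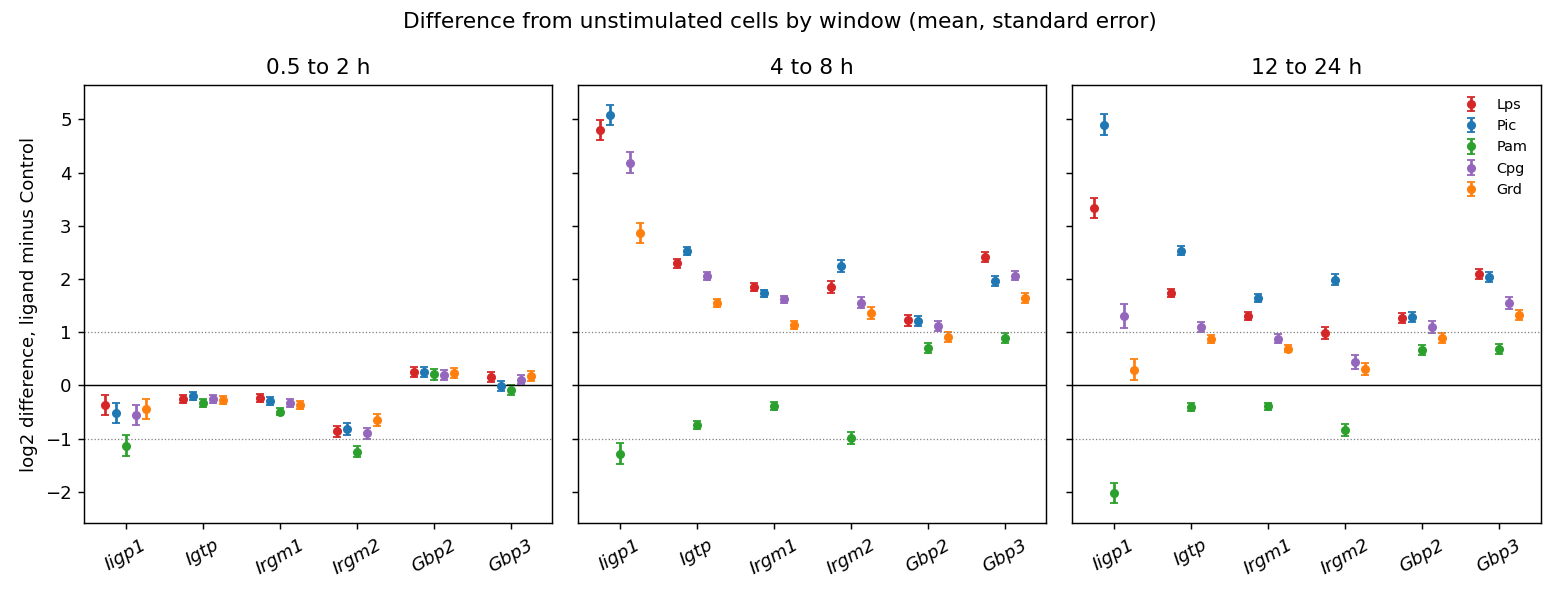
Log2 difference from Control for each gene and ligand in the early, middle and late windows, with bars of 1 standard error and dotted lines at the size needed for a call. Iigp1 spreads from 5.08 with Pic to -1.28 with Pam at 4 to 8 h, while Gbp2 keeps between 0.70 and 1.22.

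From 12 to 24 h the genes differed in how far they lay above Control, and Pic was the ligand with all 6 called higher, against a background of 4.53% of items. Iigp1 had lowest, median and highest intensities of 2615.9, 3386.7 and 4172.6 with Pic and 626.6, 1110.5 and 2242.6 with Lps, against 78.3, 99.45 and 300.2 in Control, rises of 4.90 and 3.33 ± 0.19. With Cpg its 4 arrays read 963.0 and 904.5 at 12 h, 108.0 at 16 h and 212.4 at 24 h, a rise of 1.30 ± 0.23, which was 0.43 and not called without the 12 h arrays. With Grd it had 47.8, 99.0 and 506.3, and the difference of 0.30 ± 0.19 was not called. The Grd arrays of 16 and 24 h lay at or below the Control median and those of 12 h above all Control arrays. Igtp rose by 2.54 with Pic, 1.74 with Lps and 1.10 with Cpg and stood 0.87 above Control with Grd, and without the 12 h arrays its difference with Cpg was 0.79. Irgm1 rose by 1.64 with Pic and 1.31 with Lps and stood at 0.88 with Cpg and 0.69 with Grd, and Irgm2 rose by 1.99 with Pic and stood at 0.98 with Lps, 0.31 with Grd and 0.45 with Cpg. The Irgm2 difference with Lps was past the threshold, at 1.08, 1.02, 1.01 and 1.00, without the Control array of 6 h or of 4 h or without 1 Lps array of 12 h or of 24 h. Irgm1 with Cpg was past it, at 1.05, without the single array of 16 h. Gbp2 rose by 1.10 with Cpg, a call that was lost without the Control array of 24 h, at 0.94. With Grd at these times only Gbp3 was called higher of the 6 genes, while all Grd arrays of Gbp2 and Gbp3 lay above all Control arrays, as for 10.2% of items. With the Grd arrays of 12 and 24 h alone set against the Control arrays of those times, 4 genes were called. Iigp1 stood at 1.36, Igtp at 1.29 and Gbp2 at 1.48. This setting also leaves out the Grd arrays of 16 h. Without those but against all 8 Control arrays, Igtp stood at 1.08 and Gbp2 at 1.00, both past the threshold. With all late arrays against all 8 Control arrays, 5 of 6 genes were called higher with Lps, 4 with Cpg and 1 with Grd. The share of all items called higher was 4.70%, 3.86% and 3.84%.

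The late window was then set against the middle window of the same ligand, a comparison that holds no Control array. Iigp1 was lower by 2.88 ± 0.24 with Cpg, 2.57 ± 0.21 with Grd and 1.47 ± 0.21 with Lps, differences past the threshold (limma, adjusted p = 4.5e-15, 1.9e-15 and 1.5e-08). Irgm2 was lower by 1.11 ± 0.14 with Cpg and 1.06 ± 0.12 with Grd (adjusted p = 8.3e-10 and 6.3e-11), and both calls were lost without the 16 h arrays, at -0.91 and -0.85. The call with Cpg was also lost without the 4 h arrays, at -0.99, and that with Grd without those of 6 h or 24 h, at -0.84 and -0.95. The other differences of IRG genes with these 3 ligands ran from -0.95 to -0.45, none of them called. The largest of these, Igtp with Cpg and Irgm2 with Lps, were past the threshold without the 8 h arrays, at -1.08 and -1.04, and without the 12 h arrays, at -1.27 and -1.16. Gbp2 was nearly level, at 0.05 with Lps, -0.02 with Grd and -0.01 with Cpg, and Gbp3 stood at -0.33 with Lps, -0.32 with Grd and -0.51 with Cpg. With Pic no member was called, and Iigp1 differed by -0.18 (95% interval -0.59 to 0.24). No member was called with Pam, where Iigp1 differed by -0.74, or by -1.15 and past the threshold without the 12 h arrays. The share of all items called lower late against middle was 2.12% with Cpg, 1.18% with Grd, 2.94% with Lps, 1.38% with Pic and 1.04% with Pam.

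**Figure D3:**
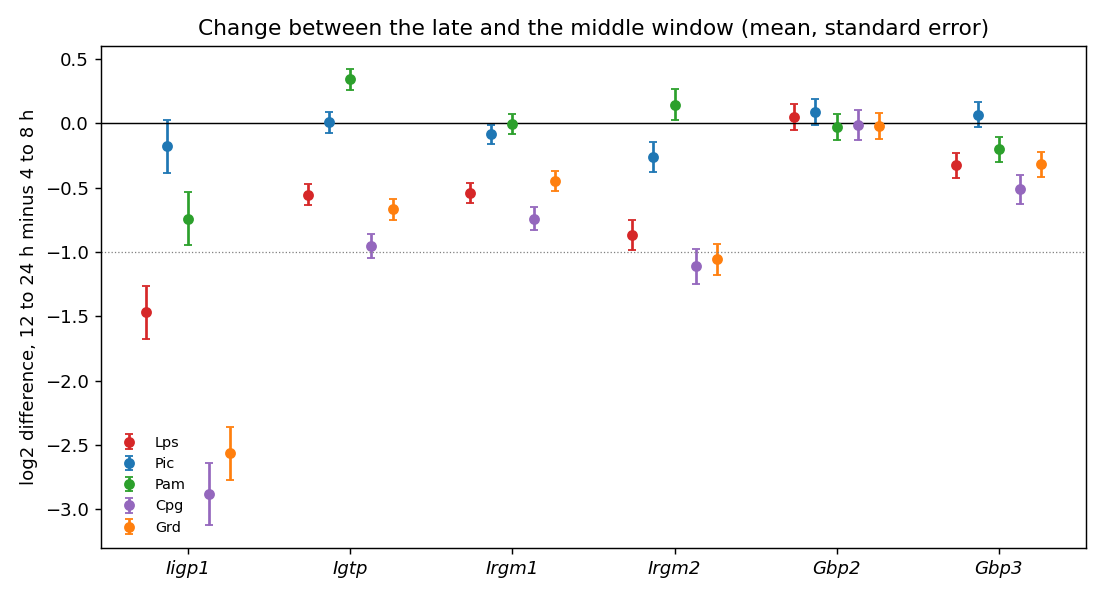
Log2 difference between 12 to 24 h and 4 to 8 h for each gene and ligand, with bars of 1 standard error and a dotted line at the size needed for a call. Iigp1 with Cpg, Grd and Lps and Irgm2 with Cpg and Grd lie under the dotted line, and the Gbp2 points lie near 0.

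With Pam the members split from 4 to 24 h: on average the IRG members lay below Control, and Gbp2 and Gbp3 above it. This is not a trait of all GBP genes. Of the 4 further GBP genes measured, 0 were called higher with Pam, and 1 was called lower in the middle and 2 in the late window. From 4 to 8 h Iigp1 had lowest, median and highest intensities of 32.5, 44.1 and 73.2 with Pam, against 78.3, 99.45 and 300.2 in Control, and fell by 1.28 ± 0.19 (limma, adjusted p = 8.1e-08). All 6 Pam arrays lay below all 8 Control arrays. From 12 to 24 h the lowest and the median were both at the floor of 20 and the highest was 62.6 with Pam, a fall of 2.02 ± 0.19 (adjusted p = 2.3e-13). Both Pam arrays at 16 h and both at 24 h were at the floor, where the mean was at least 5.6-fold lower than the Control geometric mean. On the second Iigp1 probe set the differences in these windows were -0.69 and -0.74, not called, with most Pam arrays at the floor. Of the regulatory IRG genes, Irgm2 stood at -0.98 and -0.84 in these windows, Igtp at -0.75 and -0.41 and Irgm1 at -0.39 and -0.39. These had adjusted p of 9.6e-06 or less but were under the size of a call. All Pam arrays of Irgm2 in both windows, and those of Igtp from 4 to 8 h, lay below all Control arrays. So did all Pam arrays of 17.7% of all items in the middle and 12.0% in the late window. The middle difference of Irgm2 passed the threshold without the 2 h or the 0 h Control array, at -1.04 and -1.01, and just passed it without the Control array of 1 h or 1 Pam array of 6 h or of 8 h.

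Gbp3 had lowest, median and highest intensities of 1177.8, 1766.45 and 2090.9 with Pam from 4 to 8 h and 1095.7, 1245.15 and 2151.4 from 12 to 24 h, against 509.1, 928.05 and 1058.7 in Control. Gbp2 had 3418.0, 3919.75 and 4306.9 and then 3435.4, 3687.05 and 4483.1 with Pam, against 1136.6, 2620.2 and 3056.7 in Control. Every Pam array of both genes in both windows lay above every Control array, as they did for 11.4% of all items in the middle window and 9.77% in the late window. The differences were 0.89 ± 0.09 and 0.69 ± 0.09 for Gbp3 and 0.70 ± 0.10 and 0.67 ± 0.10 for Gbp2, with adjusted p of 3e-08 or less and none at the size of a call. The Pam arrays of 12 and 24 h were also set against the Control arrays of those times, which include the dim 24 h array. This left out the Pam arrays of 16 h, and the differences were 1.14 for Gbp3 and 1.19 for Gbp2, both past the threshold. At single times Gbp3 was called higher at 6, 8 and 12 h, by 1.00, 1.16 and 1.26, where 3.65%, 3.56% and 3.27% of all items were.

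By window, 0 of 6 members were called higher with Pam and 1 lower in each of the middle and late windows. The share of all items called higher was 3.48% and 3.42%, and the share called lower was 4.00% and 2.97%. Among single times Igtp fell by 1.15 at 4 h, beside Iigp1 and Irgm2, where 4.23% of items were called lower. At 16 h Iigp1 was called lower, against 3.28% of items, and at 24 h Iigp1 and Irgm2, against 3.06%.

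**Figure D4:**
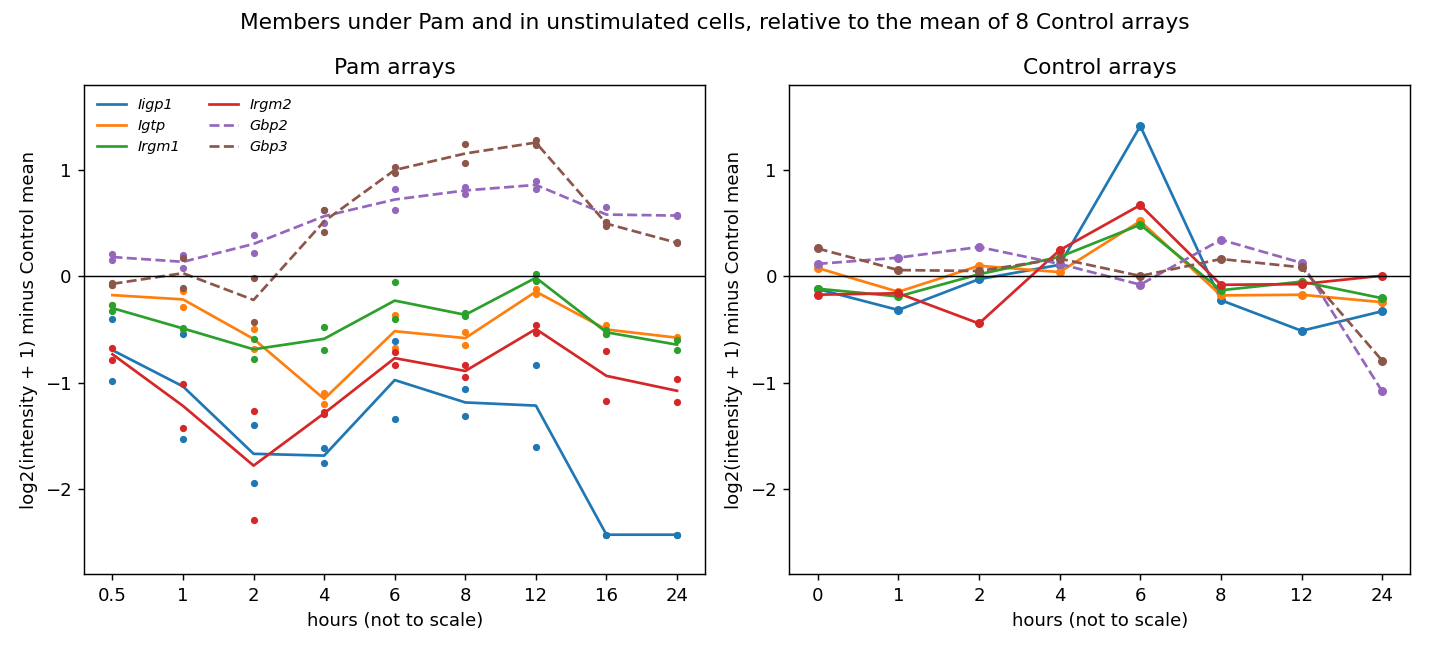
Left, Pam arrays, and right, the 8 Control arrays, as log2(intensity + 1) minus the mean of the Control arrays, with IRG genes as solid lines and GBP genes as dashed lines. The IRG lines lie below 0 or close to it with Pam and the Gbp3 line reaches 1.26 at 12 h. Among Control arrays the 6 h array is high for the IRG genes. The 24 h array is low for the GBP genes and, by less, for Igtp and Irgm1.

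Comparing ligands directly gave 10 pairs in each of 2 windows, with p adjusted over all items within each pair. In all of these pairs plate position cannot be told apart from ligand. From 4 to 8 h, Pam was lower than Cpg for 5 of 6 genes and lower than Grd for 4, and Lps and Pic were each higher than Pam for 5. The gene outside the call was Gbp2 in each case, with Gbp3 beside it for Pam against Grd. The differences for Iigp1 were 6.08 for Lps minus Pam, 6.36 for Pic minus Pam, -5.47 for Pam minus Cpg and -4.14 for Pam minus Grd. The share of items called in either direction was 6.15%, 8.24%, 3.03% and 1.48% in these 4 pairs. Iigp1 alone was called between Lps and Grd (1.94, with 1.99% of items called), between Pic and Grd (2.22, with 4.03%, and with Igtp at 0.98 and past the threshold without any of 3 single arrays) and between Cpg and Grd (1.32, with 0.417%). None of the 6 was called between Lps and Pic (3.72% of items), Lps and Cpg (0.465%) or Pic and Cpg (3.41%), though Iigp1 passed the threshold for Pic minus Cpg at 1.03 without the 4 h arrays and just passed it with its other probe set. That a pair missed the threshold does not show that the ligands act alike: for Iigp1 the 95% interval of Lps minus Pic ran from -0.69 to 0.13, and that of Pic minus Cpg from 0.48 to 1.31.

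From 12 to 24 h Pic was higher than Cpg and Grd for 3 IRG genes, and higher than Lps for 2. Its difference from Cpg was 3.60 for Iigp1, 1.43 for Igtp and 1.54 for Irgm2, and that from Grd 4.61, 1.66 and 1.68, where 5.08% and 6.35% of items were called. Lps was lower than Pic by 1.57 for Iigp1, and Irgm2 just met the threshold, where 3.44% of items were called, while Igtp stood at -0.80, not called. The Irgm2 call was lost when any of 6 single arrays was left out. Gbp2 and Gbp3 were not called between Lps and Pic, at -0.02 (95% interval -0.22 to 0.19) and 0.06 (-0.14 to 0.25). Lps was higher than Cpg by 2.03 and higher than Grd by 3.04 for Iigp1 alone, with 0.579% and 1.20% of items called. Pam was still lower than the other ligands for 4 IRG genes, with Gbp3 beside them against Lps and Pic, and the Irgm2 call against Grd was just lost without the 12 h arrays. The share of items called was 2.97% for Lps and Pam, 8.47% for Pic and Pam, 1.17% for Pam and Cpg and 0.645% for Pam and Grd. Cpg was higher than Grd for Iigp1 by 1.01 ± 0.24, with 0.237% of items called, a call that was lost without any of 4 single arrays and with plate column as a random block (adjusted p = 0.078).

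Counted time by time, 118 of the 270 pairs of a member and a ligand time were called higher, where 3.74% of all such pairs over all items were, and 16 were called lower, where 3.45% were. All 16 falls were of IRG genes, and 12 of them were with Pam. The higher calls were 34 of 54 with Lps, 35 with Pic, 26 with Cpg, 20 with Grd and 3 with Pam. The first of them came at 4 h, when 6 members were called with Lps, 5 with Pic, 3 with Grd and 5 with Cpg, against 7.41%, 3.30%, 3.81% and 5.76% of items. With Pic and Cpg the gene not yet called at 4 h was Gbp2, which was called from 6 h.

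The IRG and GBP members also differed in when their means were highest. With Lps, Pic, Cpg and Grd each IRG gene had its highest mean at 4 or 6 h, Gbp3 at 8 or 12 h and Gbp2 at 12 or 16 h. The further GBP genes measured did not all peak late. Gbp7 was highest at 6 h with these 4 ligands, and Gbp10 at 6 h with Lps, Cpg and Grd and at 16 h with Pic. Gbp8 was highest at 6 h with Pic, and Gbp2b at 12 h with Lps and at 24 h with Pic, Cpg and Grd. The highest Iigp1 means were 3760 with Lps, 4638 with Pic, 1430 with Grd and 2563 with Cpg, all at 6 h, and by 24 h the means were 16.7% of these with Lps, 59.3% with Pic, 6.93% with Grd and 8.29% with Cpg. The same share for Gbp2 was 85.3% with Lps, 88.2% with Pic, 78.4% with Grd and 88.1% with Cpg. With Cpg and Grd some means were lower at 16 h than at 24 h, as for Iigp1 with Grd, at 56.5 and 99.0. At 16 h only Gbp3 was called higher with Cpg and none of the 6 with Grd, against 3.21% and 3.69% of items, and at 24 h Gbp2 and Gbp3 with Cpg and Gbp3 with Grd, against 4.19% and 4.02%. Irgm1 with Grd had a mean of 1533 at 12 h, 900.75 at 16 h and 1000.0 at 24 h. The Cpg values at 16 and 24 h are single arrays, so their tests take the spread wholly from the other groups and assume that the lone arrays vary alike.

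Over the 46 group means, made of 45 ligand times and Control, the 4 IRG genes followed each other with Pearson's r between 0.966 and 0.987, and Gbp2 followed Gbp3 with r = 0.973. Between the families r ran from 0.801 for Iigp1 with Gbp2 to 0.928 for Irgm1 with Gbp3. These means share arrays, plate and normalization, so the values are descriptions. Among all named genes tested, those most like Iigp1 were Cmpk2 (r = 0.99), Ifi47 (0.987), Nt5c3 (0.986), Tgtp1 (0.986) and Ifit2 (0.981). Tgtp1 was also among the 5 nearest to Igtp, Irgm1 and Irgm2, with Ifit3 near Igtp and Irgm1, Pml and Tor3a near Irgm2, and Usp18 near Irgm1. The nearest to Gbp2 after Gbp3 were Casp1 (0.946), Tmco3 (0.94), Dok1 (0.932) and Psma5 (0.932), and the nearest to Gbp3 after Gbp2 were Map2k1 (0.964), Usp18 (0.961), Rnf135 (0.95) and Usb1 (0.945).

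Relatives of the members were measured in part. Of 14 further IRG genes and relatives listed, 2 were measured, Ifi47 and Tgtp1, and both rose from 4 to 8 h with Lps, Pic, Cpg and Grd. Tgtp1, another effector IRG, rose by 3.68, 4.05, 3.36 and 2.86 and stood at -0.42 with Pam. The median of the 2 was 2.91 with Lps, beside -0.11 over all items. Of 11 further GBP genes listed, 4 were measured. With Pic all 4 rose from 4 to 8 h (median 1.85, beside -0.10 over all items), with Lps, Cpg and Grd 2 did, and with Pam none. Gbp10 rose by 2.81 with Lps and stood at -0.13 with Pam, and Gbp7 rose by 1.88 with Lps and stood at 0.32 with Pam. Gbp8 rose with Pic, by 1.57, and fell by 1.74 with Pam. From 12 to 24 h with Pam 0 of the 4 were called higher and 2 lower, Gbp7 at -1.26 and Gbp8 at -1.85, with a median of -0.68, beside -0.01 over all items.

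Of 21 interferon ligands, receptors and signalling genes listed, 19 were analysed here. From 4 to 8 h 6 of them were called higher and 1 lower with Lps, 8 and 1 with Pic, 5 and 1 with Cpg, 5 and 1 with Grd and 2 and 1 with Pam. The gene called lower was Ifngr1, a chain of the interferon-gamma receptor, at -2.08 with Lps, -1.53 with Pic, -1.81 with Cpg, -1.55 with Grd and -1.26 with Pam. The share of all items called lower was 8.22%, 2.79%, 5.53% and 3.92% with Lps, Pic, Cpg and Grd. Ifnb1, which encodes interferon-beta, had its highest mean of 849.9 at 2 h with Lps, 1682 at 8 h with Pic, 102.6 at 6 h with Grd and 299.8 at 4 h with Cpg, and lay at 20 on all Pam and all Control arrays. At 12 h its mean was 671.2 with Pic, against 31.4 with Lps, 24.2 with Grd and 21.5 with Cpg. Irf1, an activator of GBP genes, rose by 2.14 with Pic and 1.49 with Lps from 4 to 8 h and stood at 0.99 with Cpg, 0.82 with Grd and -0.14 with Pam. Its highest mean came before that window with Pam and Cpg, at 1361 and 1970 at 1 h, against 437.0 in Control. Stat2, a part of the factor that binds ISREs, rose by 1.17 with Lps, 1.42 with Pic, 1.05 with Grd and 1.31 with Cpg and stood at -0.44 with Pam. Socs1, an inhibitor of interferon receptor signalling, rose with all 5 ligands, by 2.27 with Pam and 3.09 with Lps, and Usp18, another inhibitor, rose by 2.66 with Lps and stood at 0.22 with Pam.

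The conjugation genes of autophagy and their ubiquitin partners, whose products place IRG and GBP proteins on vacuoles, had 1 call from 4 to 8 h. Of 13 listed, 11 were measured, and 0 were called higher with any ligand and 1 lower, Atg7, an E1-like enzyme, which fell by 1.22 with Lps, where 7.05% of all items were called higher and 8.22% lower. Their median difference with Lps was -0.26, beside -0.11 over all items. Of 8 inflammasome genes linked to GBP proteins 6 were measured, and from 4 to 8 h 4 rose with Lps, Cpg and Grd, 3 with Pam and 1 with Pic, beside 7.05%, 5.40%, 4.53%, 3.48% and 4.93% of all items in that order. Pycard, the inflammasome adaptor, fell by 1.11 with Pam and 1.13 with Grd, where 4.00% and 3.92% of items were called lower. Casp4, the sensor of cytosolic lipopolysaccharide also known as caspase-11, rose with all 5 ligands, by 2.44 with Lps, 2.14 with Pic, 2.15 with Cpg, 1.66 with Grd and 1.01 with Pam. Casp1 stood at 0.88 with Lps and 0.01 with Pam, neither called, and Il1b rose by 3.91 with Pam and stood at 0.55 with Pic.

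The second probe sets of Iigp1 and Gbp2 differed in call in few comparisons, but for Iigp1 these include its fall with Pam in every window. For Iigp1 the second probe set stood at 5.06 with Lps, 5.30 with Pic, 2.63 with Grd and 4.30 with Cpg from 4 to 8 h. With Pam it stood at -0.39 in the first 2 h, -0.69 from 4 to 8 h and -0.74 from 12 to 24 h, not called. It read between 20.8 and 103.8 in Control and lay at 20 on 5 of 6 Pam arrays in the middle window and on all 6 in the late window. Where both arrays of a time were at 20 it was at least 1.7-fold lower than the Control geometric mean. For Gbp2 the second probe set stood at 1.42 with Lps, 1.40 with Pic and 1.26 with Cpg from 4 to 8 h, and at 1.12 with Grd, which is past the threshold where the first was not. With Pam it stood at 0.79 and 0.87 in the middle and late windows, not called.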

How the data were processed

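Expression was measured on 96 one-colour Affymetrix arrays of mouse bone marrow dendritic cells. The authors deposited intensity values on a linear scale, made with RMA per the submitters' processing notes (version: not given in the sources used here). Neither the origin of the floor of 20 nor a genome build is stated. By the platform annotation 15044 probe sets had 1 symbol, 257 several and 3557 none. Probe sets that never left the floor (4409) were dropped, and each gene was represented by its brightest remaining probe set, which gave 10543 items.

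One limma 3.58.1 model (R 4.3.3) on log2(value + 1), with no further normalization, fitted 45 ligand and time means and 1 Control mean with 50 residual degrees of freedom. Windows are means of their time means. Tests were two-sided, with Benjamini-Hochberg adjustment over all items in each contrast. The fit was tested on simulated data. Control trends used the 8 Control arrays alone. Replicate numbers in the labels were not used to pair arrays. Over 903 pairs of groups, the correlation of the differences between replicates 1 and 2 ran from -0.328 to 0.349. Its median was 0.008, and 157 were over 0.1. Arrays of the same plate column had a consensus correlation of 0.3259 beyond the group means. The main fit does not take this into account, and 1 of the alternatives below does.

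All 6 members are named with every probe set, lists are given by counts with at most 6 called genes of largest size, and likeness by the 5 nearest genes. Uncalled values of list genes, such as those of Casp1 and of Il1b with Pic, were chosen after they were seen. The members and lists were chosen with earlier results of these data known. Alternatives were centring, pseudocount, filters, probe set, array weights, replicate block, plate column, each array or time left out, and other treatments of Control. Leaving out the Control arrays of 6 and 24 h together was chosen after the values were seen.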

Additional observations from a re-analysis of the deposited data

Results flagged for a closer look

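Among the 8 Control arrays, 1 array stood apart for 4 of the 6 genes, by the gap to its nearest neighbour over the whole range. The 6 h array was high for Iigp1, at 300.2 on its first and 103.8 on its second probe set, and for Igtp, at 370.3. The 24 h array was low for Gbp2, at 1136.6 on its first and 979.9 on its second probe set, and for Gbp3, at 509.1. These are 6 of 8 probe sets tested, and chance gives about 1 in 20 groups by the rule's nominal rate. The flags are not independent, as all lie on the 6 h or 24 h array, and Iigp1 and Gbp2 count with both probe sets. The share of all items passing this rule was not tested, so the count cannot be set against a background. Of 9710 items that varied in Control, the 24 h array was lowest for 22.8% and highest for 22.9%. The 6 h array was highest for 11.6%. Each Control time has 1 array, so a difference between arrays and a difference between times cannot be told apart.

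The difference from Control changed past the threshold between the middle and late windows for 2 genes, by the test of late minus middle. Iigp1 differed by -2.88 with Cpg, -2.57 with Grd and -1.47 with Lps, and Irgm2 by -1.11 with Cpg and -1.06 with Grd. Without the limit on size, 5 of 6 members had an adjusted p under 0.05 in limma with each of these 3 ligands, all lower late.

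Iigp1 was called lower than Control with Pam and higher with other ligands, and the ligands differed when set against each other. The lower call with Pam held on its first probe set only. From 4 to 8 h the differences were 6.08 for Lps minus Pam, 6.36 for Pic minus Pam, -5.47 for Pam minus Cpg and -4.14 for Pam minus Grd. From 12 to 24 h they were 5.36 for Lps minus Pam, 6.93 for Pic minus Pam and -3.33 for Pam minus Cpg.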

How the results depend on the processing

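No called difference of a member changed sign in any alternative run. Of 5882 values of single members 5781 kept their side of the threshold, 45 lost a call and 56 gained one, and of 1100 counts 30 moved by over 1.5 times. The replicate block moved no count by over 1.5 times, and among single members it ended 1 call, Iigp1 for Cpg minus Grd late, at 0.99. Members higher with Pam were 1 in the middle window without the 4 h arrays and 2 in the late window against Control arrays of the same times. With Control arrays of the same times, the late window holds only the 12 and 24 h arrays of a ligand. Members higher late were 2 with Cpg without the 12 h arrays. With Grd late they were 4 against Control arrays of the same times, 2 with a linear Control trend, 3 without the 16 h arrays and 2 with the other probe sets. Members lower early with Pam were 1 with pseudocount 16, without the Control 6 h and 24 h arrays or with the other probe sets, and 0 without the 2 h arrays, and ran from 1 to 2 with single arrays left out. In the middle window with Pam they were 2 against Control arrays of the same times, with a linear Control trend, and without the 6 h or the 8 h arrays, 0 with the other probe sets, and 1 to 2 with single arrays left out. In the late window with Pam they were 2 without the 12 h arrays and 0 with the other probe sets. Members lower early with Cpg were 1 without the 1 h arrays and ran from 0 to 1 with single arrays left out. Calls late against middle, 5 in all, were 8 without the 12 h and 3 without the 16 h arrays. With hours on a linear scale 2 members, Gbp2 and Gbp3, had a Control trend (adjusted p = 0.045 and 0.034), where 16.0% of items did. Apart from the construction of the settings, the causes were not tested. The floor limits falls of Iigp1, and 2 arrays per ligand and time, with 8 Control arrays, limit precision.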
